A study of Mus musculus with 30 samples.

Results

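Small nucleolar RNA host genes are transcribed into spliced RNAs whose introns carry small nucleolar RNAs, and 8 of them are described here across sorted cortical cells of the mouse: Gas5, Snhg1, Snhg3, Snhg5, Snhg6, Snhg8, Snhg11 and Snhg12. They were taken by symbol from the deposited FPKM values (a level scaled for the length of the gene and the depth of the library), and all 8 were found among the 23993 genes listed. The libraries came from tdTomato-positive cells sorted from the medial prefrontal cortex (mPFC) of C57BL/6 mice aged 6 to 12 weeks, in which Sst-Cre or Pvalb-Cre, each driving recombination in 1 class of interneurons, was crossed to the Ai9 tdTomato reporter. The groups were control Sst females (7 libraries), control Sst males (7), Sst males after 14 days of chronic unpredictable stress (CUS, 3) and control Pvalb males (7). A further 6 labelled samples, among them every CUS female, were not analysed here. Control Sst males carried titles of 2 kinds, a short running number (such as SST3-M) or a long string of digits in the manner of a date (SS04031R, SST040241L and SST04241LL), and all 3 CUS libraries carried the dated kind. The female and Pvalb titles are counted with the numbered kind, although SST-F carries no number. The labels do not say that a dated title marks a batch, so the 2 kinds are called numbered and dated.

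The spliced product of a host gene carries no long conserved reading frame, and in many hosts it is bound by ribosomes and degraded by nonsense-mediated decay, while the intron is trimmed to a stable small RNA that guides the chemical modification of ribosomal and other RNAs. Box C/D small nucleolar RNAs (the Snord genes) guide methylation of the ribose, and box H/ACA small nucleolar RNAs (the Snora genes) guide pseudouridylation. Many hosts, Gas5 first among them, belong to the 5′ terminal oligopyrimidine class, whose RNAs begin with a run of C and T at the start site and respond to growth conditions together with ribosomal protein messenger RNAs.

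The 8 genes are compact. In the RefSeq annotation of GRCm38.p6 they span from 785 bases (Snhg8, chr3:123507552-123508336) to 10762 bases (Snhg11, chr2:158375713-158386474). Gas5 lies at chr1:161034601-161038539, where it overlaps Zbtb37, and holds 8 small nucleolar RNA genes inside its span. Snhg1 lies at chr19:8723487-8726326 and also holds 8. Snhg12 lies at chr4:132308678-132311024 with 4, and Snhg3 is near it at chr4:132351933-132353686 with 2. Snhg5 (chr9:88521052-88522897) and Snhg11 hold 2 each, Snhg6 (chr1:9942025-9944118, overlapping Mcmdc2) and Snhg8 hold 1 each. In the older GENCODE M1 annotation, 22 of 27 small nucleolar RNA genes paired with these hosts lay in an intron of at least 1 host transcript, and the other 5, Snord22 among them, lay in Snhg1, for which that release has 2 spanning transcripts per small RNA.

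The start sites are shown because the run of pyrimidines there is the feature that defines the terminal oligopyrimidine class. RefSeq promoter windows (GRCm38.p6) were found for 7 of the 8 genes, not for Snhg6, and Gas5 had 2. Each line gives 20 bases before and 30 bases from the annotated start, 5′ to 3′ on the strand of the gene, and the capitals mark the longest unbroken run of C and T that touches the stretch from 10 bases before to 20 bases after the start, searched on that strand only.
Gas5, chr1:161034581-161034630: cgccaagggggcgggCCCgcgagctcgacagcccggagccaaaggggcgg
Gas5, chr1:161035146-161035195: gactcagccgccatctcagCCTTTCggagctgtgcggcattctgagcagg
Snhg1, chr19:8723467-8723516: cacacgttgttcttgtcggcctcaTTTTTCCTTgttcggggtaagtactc
Snhg3, chr4:132353657-132353706: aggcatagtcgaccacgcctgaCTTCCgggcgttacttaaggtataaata
Snhg5, chr9:88522868-88522917: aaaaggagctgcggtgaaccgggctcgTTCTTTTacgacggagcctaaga
Snhg8, chr3:123508307-123508356: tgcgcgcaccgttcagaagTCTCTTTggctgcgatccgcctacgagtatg
Snhg11, chr2:158375693-158375742: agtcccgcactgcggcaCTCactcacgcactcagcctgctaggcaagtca
Snhg12, chr4:132308658-132308707: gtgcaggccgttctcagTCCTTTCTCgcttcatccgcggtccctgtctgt

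The longest runs were 9 bases in Snhg1 and Snhg12, which 7.11% of all 32851 promoter windows reached, and 7 bases in Snhg5 and Snhg8, which 17.9% reached. The second Gas5 start had a run of 6 (28.7% of windows) and Snhg3 a run of 5 (46.4%). Snhg11 and the first Gas5 start had runs of 3, which 88.3% of windows reached. The median was 6.5 over the 8 member windows and 4 over all windows. In Snhg8, Snhg12 and the second Gas5 window the run covered the annotated start itself. These are descriptions of letters near an annotated start, and no start was measured in these data.

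Several facts about the libraries touch every value below. The libraries SST1-M and SST0-M nearly coincided, with an SD of their log2 ratio over genes of 0.0212 against 0.267 for the next closest male Sst pair, and PV0-M and PV2-M likewise with 0.0170 against 0.225. Each pair was averaged and counted as 1 sample, which left 22 samples and 3 numbered male Sst samples. The study states a general range of reads per sample, but the number for each library is unknown. In each library 12124 to 14255 genes exceeded 0.4 FPKM. Total FPKM was 681118 to 959187 in the dated male controls and 311276 to 432075 in the numbered ones. Approximate depth relative to SST2-F, from the step of low values, was 1.66 to 2.49 in the numbered Sst males. It was 0.456 to 1.52 in the females, 0.763 to 0.936 in the dated males and 1.05 to 1.13 after CUS. In the Pvalb group PV0-M and PV2-M were highest, at 1.82 and 1.78. The part of depth in the values below was not tested. Defining markers of the sorted cells were low: over the 22 samples the Sst transcript reached at most 49.3 FPKM and Pvalb at most 5.07, and the 10 interneuron markers summed to 3.47 to 67.2 FPKM. The Sst transcript averaged 11.6 FPKM in the numbered Sst controls (n = 10) and 23.3 in the Pvalb controls (n = 6), against its label. Of those 10 Sst samples, 7 lay below every Pvalb sample. Pvalb averaged 0.402 against 2.64 FPKM, in the direction of its label. The 12 microglia markers summed to 2677 to 9568 FPKM. Xist was at 300.2 to 333.1 FPKM in PV1-M, PV4-M and PV5-M, libraries labelled male, and at 6.64 or less in the other Pvalb samples. In these bulk samples, fewer cells of a type and less RNA per cell cannot be told apart.

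Among the 8 genes Gas5 was the most abundant in every group and Snhg11 the least. Averaged over the 22 samples, Gas5, whose product is known to accumulate in growth-arrested cells, was at 84.1 FPKM, at or above 97.6% of all genes in the table. Snhg12 (42.9 FPKM) and Snhg1 (41.1) followed, then Snhg5 (25.8), Snhg3 (18.1), Snhg8 (16.2) and Snhg6 (9.79). Snhg11, known as a transcript of neurons, stood at 2.43 FPKM, at or above 51.7% of genes. Snhg12 and Snhg1 exchanged places between groups. Snhg1 lay above Snhg12 in all 3 samples after CUS (16.2 to 23.7 against 8.56 to 13.9 FPKM). The same order held in each of the 3 dated controls (12.9 to 25.6 against 8.04 to 17.7). The ranges of the 2 genes overlapped in every group but the CUS males.

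**Figure D1:**
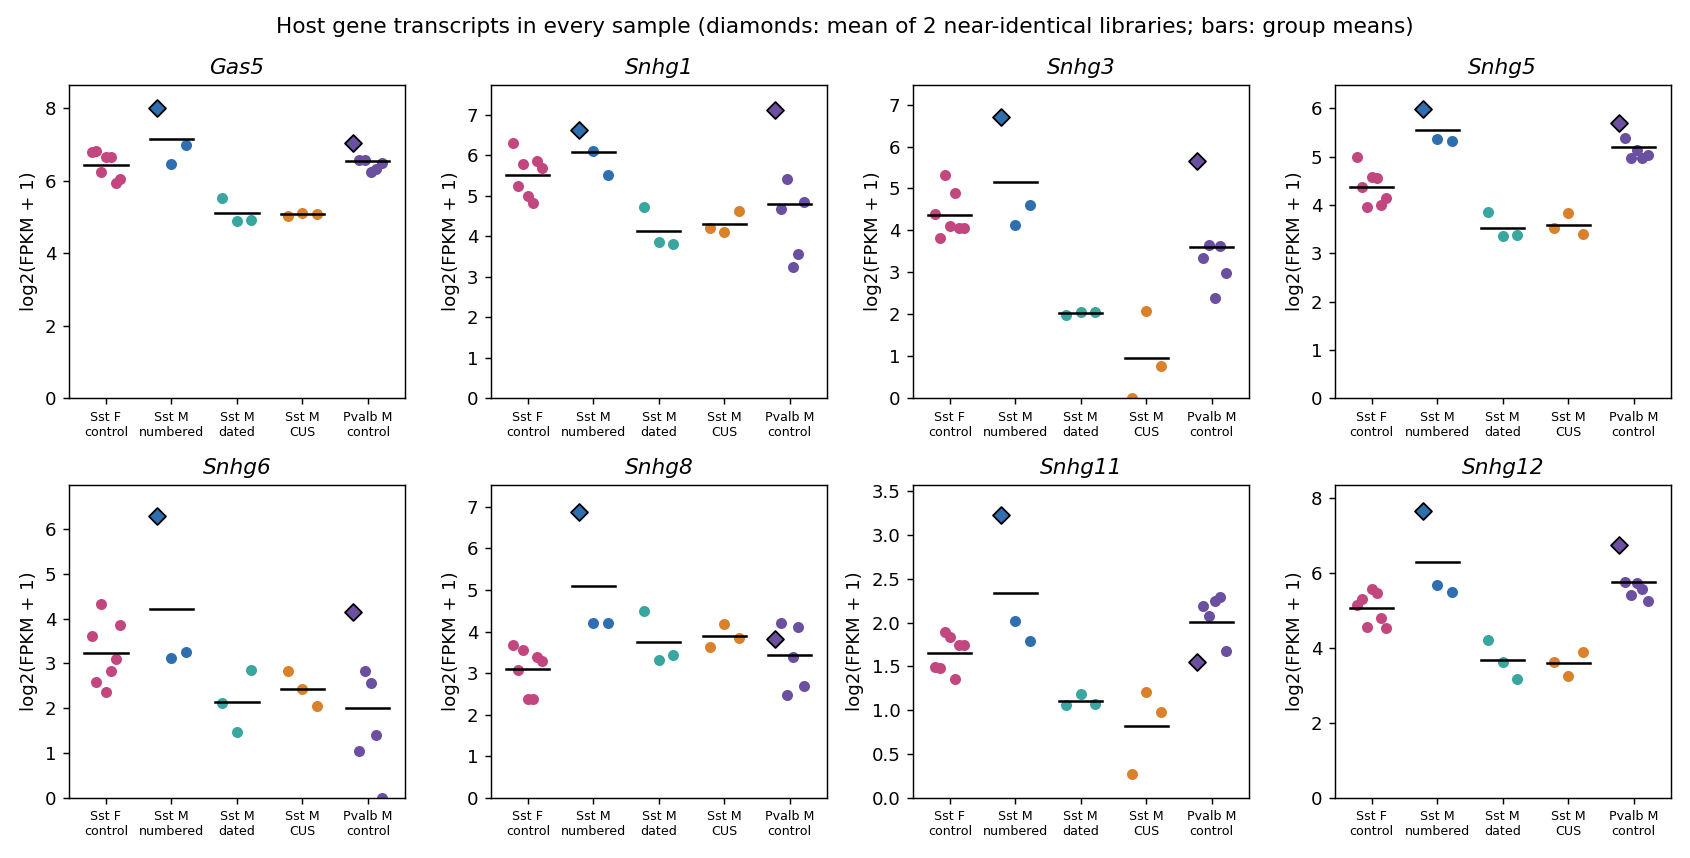
Level of each of the 8 host genes as log2(FPKM + 1), 1 point per sample, in control Sst females (7), numbered control Sst males (3), dated control Sst males (3), Sst males after CUS (3) and control Pvalb males (6). Bars are group means and diamonds are the 2 samples made of near-identical libraries. The dated and CUS samples lie low together for Gas5, Snhg3, Snhg5 and Snhg12, and the diamond of the numbered males is the highest point for every gene but Snhg1.

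Control Sst males with dated titles had less host gene RNA than those with numbered titles, and the median change of the 8 genes was larger here than in the other 4 comparisons made. All 8 log2 fold changes on the FPKM + 1 scale were negative, with a median of -2.04 against -0.0042 over all genes tested. Gas5, Snhg1, Snhg3 and Snhg5 were lower with an adjusted p below 0.05 (limma, Benjamini-Hochberg over 14230 genes, used for every adjusted p below), against 2.30% of all genes tested that were lower by the same call. For 7 of the 8 genes, Snhg8 being the exception, every dated sample lay below every numbered one, which held for 17.0% of all genes tested. Summed neuron markers were 47.2 to 85.0 FPKM in the dated and 104.6 to 142.4 in the numbered males. Of these 10 markers, 5 had positive and 5 had negative changes, with a median log2 fold change of 0.035. Interneuron markers summed to 3.47 to 7.42 against 7.80 to 12.7 FPKM, and microglia markers to 3330 to 7370 against 5783 to 9568. Summed astrocyte, oligodendrocyte and endothelial markers also overlapped, with higher medians in the dated males (1270 against 854.3, 1135 against 694.3 and 115.6 against 44.6 FPKM). The part of all these markers in the lower host values was not tested.

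Gas5 was at 44.5, 28.8 and 29.0 FPKM in SS04031R, SST040241L and SST04241LL. In the numbered males it was at 254.8 in the averaged pair SST0-M/SST1-M, 87.0 in SST3-M and 125.6 in SST4-M. The groups did not overlap, and the log2 fold change was -2.04 ± 0.43 (SE, adjusted p = 0.0465, limma). Snhg1, the host of U22 and 7 further box C/D RNAs inside its span, was at 25.6, 13.6 and 12.9 FPKM in the dated males and at 98.5, 67.5 and 44.98 in the numbered ones, a change of -1.95 ± 0.39 (adjusted p = 0.0411, limma). It too showed no overlap.

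Snhg3, which carries the H/ACA RNAs Snora73a and Snora73b, had the lowest relative level. It was at 2.96, 3.13 and 3.13 FPKM in the dated males, and at 103.8, 16.4 and 23.3 in the numbered ones (log2 fold change -3.12 ± 0.63, adjusted p = 0.0411, limma). Snhg5, the host of the U50 box C/D RNAs, was at 13.5, 9.22 and 9.45 FPKM against 62.5, 40.6 and 39.0 (-2.03 ± 0.30, adjusted p = 0.0180, limma). The dated values of both genes lay within a narrow range, while 1 numbered sample stood far above the other two for Snhg3.

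The other four did not pass. Snhg12, with 4 small nucleolar RNA genes in its span, was at 17.7, 11.4 and 8.04 FPKM in the dated males and at 202.6, 51.0 and 44.4 in the numbered ones (log2 fold change -2.62, 95% interval -4.0 to -1.23, adjusted p = 0.0547, limma). Snhg6, host of Snord87, changed by -2.07 (-4.04 to -0.10) and Snhg11 by -1.24 (-2.31 to -0.17), both without overlap of the groups. Snhg8, host of Snora24, was at 21.7, 9.002 and 9.78 FPKM against 116.9, 17.6 and 17.6, so that SS04031R lay above 2 of the numbered samples, and its interval included 0 (-3.07 to 0.36).

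The averaged pair SST0-M/SST1-M was the highest of all 22 samples for 7 of the 8 genes, and for Snhg1 it stood below the averaged pair PV0-M/PV2-M only. The share of all genes that were highest in this pair was not counted. Both of its libraries stood apart over all genes. The upper quartile of their values above 0 was 24.3 and 24.4 FPKM, against 15.2 to 18.2 in the other libraries. They also had the fewest genes above 0.4 FPKM (12125 and 12124). The pair exceeded the mean of SST3-M and SST4-M by a factor of 1.57 for Snhg5, 1.75 for Snhg1 and 2.40 for Gas5, and of 6.65 for Snhg8 and 9.48 for Snhg6. Without the pair, the dated males were still lower in every gene, and 5 passed: Gas5 (-1.62), Snhg1 (-1.68), Snhg3 (-2.34), Snhg5 (-1.82) and Snhg12 (-1.93). The adjusted p of these 5 then ranged from 0.00478 to 0.0286 (limma), in a fit that called 13.7% of all genes, against 4.11% with all samples. The calls were lost, with little change in size, when another sample was left out: 1 of the 8 passed without SS04031R and none passed without SST040241L, SST04241LL, SST3-M or SST4-M. Calls fell over all genes as well, to 1.05%, 0.381%, 0.402%, 0.536% and 0.976% in that order. The median and quantile scalings left the direction of all 8 as it was, with 2 and 5 of them passing (3.56% and 7.80% of all genes).

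**Figure D2:**
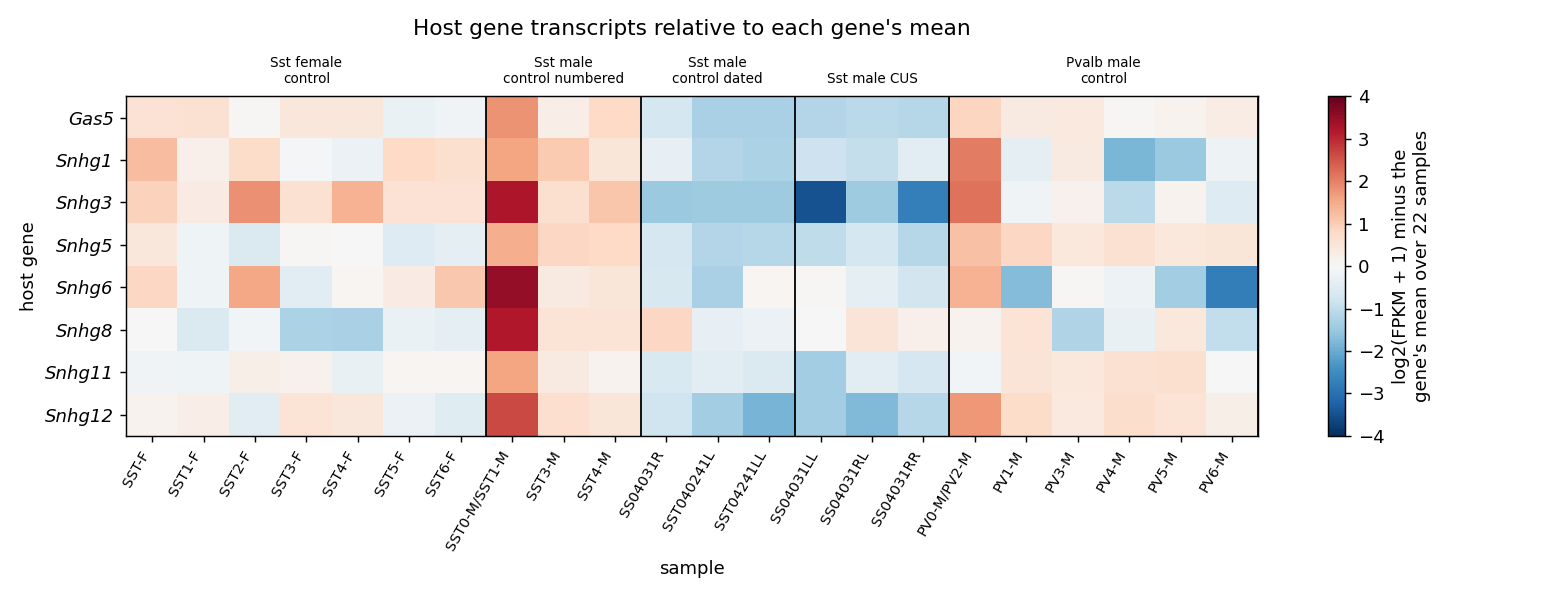
Host gene levels in each of the 22 samples as log2(FPKM + 1) minus the mean of that gene over the 22 samples, with samples ordered by group. The column SST0-M/SST1-M is above the mean in all 8 genes, and the 3 dated controls and 3 CUS samples are below it in Gas5, Snhg1, Snhg3, Snhg5, Snhg11 and Snhg12.

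Of the small nucleolar RNAs inside these hosts, Snord22 and Snora16a rose in the dated males, 3 others had positive changes that did not pass, and 3 were at 0 throughout. Of the 28 such genes that RefSeq places inside the 8 spans, 8 have a row in the table, and they sit in Gas5, Snhg1, Snhg6, Snhg8 and Snhg12. The values of RNAs this short (56 to 136 bases in RefSeq) depend strongly on how fragment length enters an FPKM, so they are not comparable with levels of long transcripts, and a value of exactly 0 may be an estimate that failed. Snord22, the U22 RNA within Snhg1 that is needed for ribosomal RNA maturation, was at 49383, 43893 and 45219 FPKM in the dated males and at 195.3, 856.6 and 606.7 in the numbered ones. No sample came near the other group, and the log2 fold change was 6.62 ± 0.58 (adjusted p = 0.00269, limma), opposite in sign to that of Snhg1.

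Inside Snhg12, 2 H/ACA RNAs had values above 0. Snora16a was at 1040, 1558 and 1046 FPKM in the dated males and was listed at 0 in every numbered one (adjusted p = 1.51e-06, limma). Snora44 was at 967.1, 1220 and 1010 FPKM against 122.4, 339.1 and 414.9 (log2 fold change 2.03 ± 0.49, adjusted p = 0.0638, limma), without overlap. Snora24 in Snhg8 was at 683.6, 805.4 and 555.7 FPKM in the dated males, against 0, 108.3 and 149.6 (adjusted p = 0.180, limma). Snord87 in Snhg6 was at 49566 and 11637 FPKM in SS04031R and SST04241LL and listed at 0 in SST040241L and in every numbered sample of both subtypes. Snord47 in Gas5, and Snora61 and Snord99 in Snhg12, were listed at 0 in all 24 libraries.

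The ratio of Snord22 to Snhg1 was 1928 to 3498 in the dated males, 1959 to 2668 in the CUS males and 1.98 to 13.5 in the numbered males. In control females it was at most 26.4, and in Pvalb males at most 113.0, with 1 sample at 0 in each of these groups. The ratio of Snora44 to Snhg12 was 54.7 to 125.7 in the dated males and 0.604 to 9.35 in the numbered ones. Whether the kind of title stands for a different recovery of small RNA is not given in the sources used here, and its part in the lower host values was not tested.

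**Figure D3:**
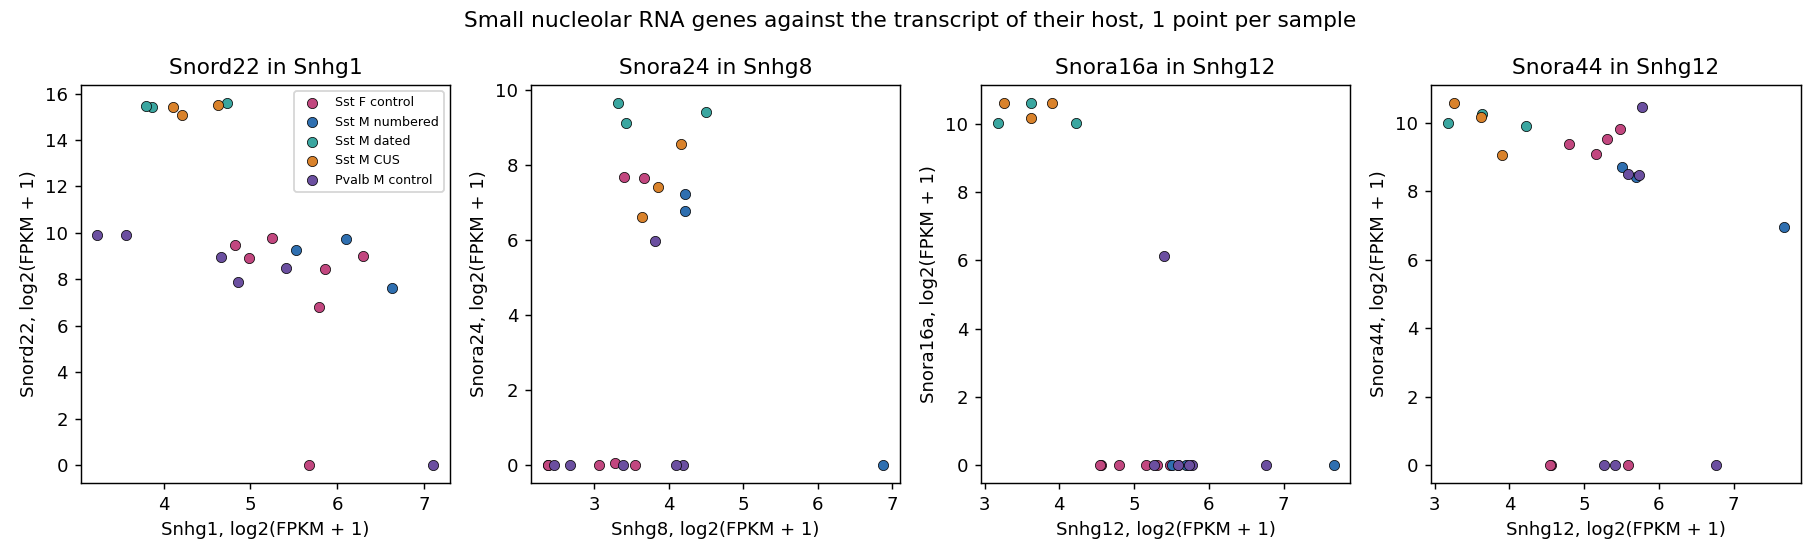
Level of 4 small nucleolar RNA genes (vertical axis) against that of the host that contains them (horizontal axis), both as log2(FPKM + 1), 1 point per sample and coloured by group. The 6 dated samples, controls and CUS, lie at the upper left for Snord22 and Snora16a, with more small RNA and less host RNA than the numbered males, and many numbered samples are at 0 for Snora24 and Snora16a.

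CUS was compared with controls of the same kind of title. Within that kind, the 3 CUS libraries and 1 control, SS04031R, share the start of their titles, and the controls SST040241L and SST04241LL do not, so titles are not fully matched. None of the 8 genes passed against the 3 dated male controls (limma), none had an unadjusted p below 0.05, and 0.00705% of all 14186 genes tested passed in either direction. The log2 fold changes had a median of 0.0090, with 4 positive and 4 negative. Gas5 was at 31.7, 33.5 and 32.6 FPKM after CUS, inside the range of the dated controls (28.8 to 44.5), and its 95% interval was -0.49 to 0.42. The interval was -0.41 to 0.52 for Snhg5, -0.48 to 0.84 for Snhg1, -0.78 to 0.61 for Snhg12 and -0.64 to 0.91 for Snhg8. That of Snhg6 was -0.61 to 1.18 and that of Snhg11 was -0.93 to 0.37.

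Snhg3 had the largest difference after CUS. It was listed at 0 in SS04031LL and was at 3.21 FPKM in SS04031RL and 0.699 in SS04031RR, against 2.96 to 3.13 in the dated controls (log2 fold change -1.08, 95% interval -2.24 to 0.08, adjusted p = 0.647, limma). SS04031RL lay above all 3 controls, so the groups overlapped. Among the hosted RNAs, Snora24 was at 97.3, 378.2 and 169.5 FPKM after CUS and below the dated controls in every sample (log2 fold change -1.87 ± 0.47, adjusted p = 0.647, limma), while Snord22, Snora16a and Snora44 overlapped. Every CUS sample lay below every dated control in 9.39% of all genes tested. The summed oligodendrocyte markers were 1660 to 2031 FPKM after CUS and 408.7 to 1334 in the dated controls, and the part of that difference in these values was not tested.

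Against all 6 male controls, all 8 changes were negative with a median of -0.93, and again none passed (1 gene, Snhg3 at -2.64, had an unadjusted p below 0.05, and 0.00698% of 14319 genes passed). These controls mix both kinds of title. Gas5 averaged 32.6 ± 0.88 FPKM (SD, n = 3) after CUS, 34.1 ± 9.02 (n = 3) in the dated controls and 155.8 ± 87.9 (n = 3) in the numbered ones.

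Control Sst females were compared with the 3 numbered Sst males. All 8 genes had negative log2 fold changes in females, with a median of -0.87 against 0.05 over all genes, and Snhg5 alone passed (1.66% of 14443 genes were lower by the same call). Snhg5 ranged from 14.6 to 30.9 FPKM in females with a median of 19.8, and was at 39.0, 40.6 and 62.5 in males, without overlap. Its log2 fold change was -1.19 ± 0.24 (adjusted p = 0.0291, limma). The call was lost in 7 of the 10 fits that left out 1 sample, those without SST3-M or any female but SST-F, with adjusted p from 0.0551 to 0.0734 (limma). Those fits called 0.692% to 1.05% of all genes, against 3.41% with all samples. Without the pair SST0-M/SST1-M the change was -0.98 (adjusted p = 0.0425, limma), in a fit that called 6.22% of all genes.

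Snhg8 was the other gene whose groups did not overlap, as was the case for every female below every male in 4.48% of all genes tested. It ranged from 4.19 to 11.8 FPKM in females (median 8.73) and was at 17.6, 17.6 and 116.9 in males, a change of -2.0 ± 0.53 (adjusted p = 0.0572, limma), which became -1.11 without the averaged pair. It passed without SST-F (adjusted p = 0.0389) and without SST4-M (adjusted p = 0.0377, limma). Those fits called 12.4% and 7.55% of all genes. Gas5 ranged from 59.97 to 111.5 FPKM in females and overlapped the males (-0.70, 95% interval -1.39 to -0.02). The intervals of Snhg1, Snhg3 and Snhg6 included 0.

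Without the averaged pair, the change of Gas5 was -0.28, that of Snhg1 -0.29, that of Snhg11 -0.25 and that of Snhg12 -0.54. Snhg3 and Snhg6 came to 0.014 and 0.057, with the sign turned. Against all 6 male Sst controls no gene passed (limma), and Gas5, Snhg1, Snhg3, Snhg6 and Snhg12 turned positive. The dated males had lower means than the females in these 5 genes. Gas5, for example, was at 59.97 FPKM or more in every female and at 44.5 or less in every dated male. Of the 12 microglia markers 4 were lower and 1 higher in females by the same call (41.7%, against 3.41% of all genes). Their part in the values of Snhg5 was not tested.

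The order of the female samples differed from gene to gene. Gas5 was at 109.0, 111.5, 74.3, 99.7, 100.1, 59.97 and 65.0 FPKM in SST-F and SST1-F to SST6-F. Snhg1 was at 77.8, 37.1, 54.2, 30.7, 27.3, 56.9 and 50.2 in the same order. SST4-F was thus the lowest of the 7 for Snhg1 and above the median for Gas5, and SST5-F the reverse. The coefficient of variation over the 7 females was from 20.4% for Snhg11 to 56.6% for Snhg6.

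**Figure D4:**
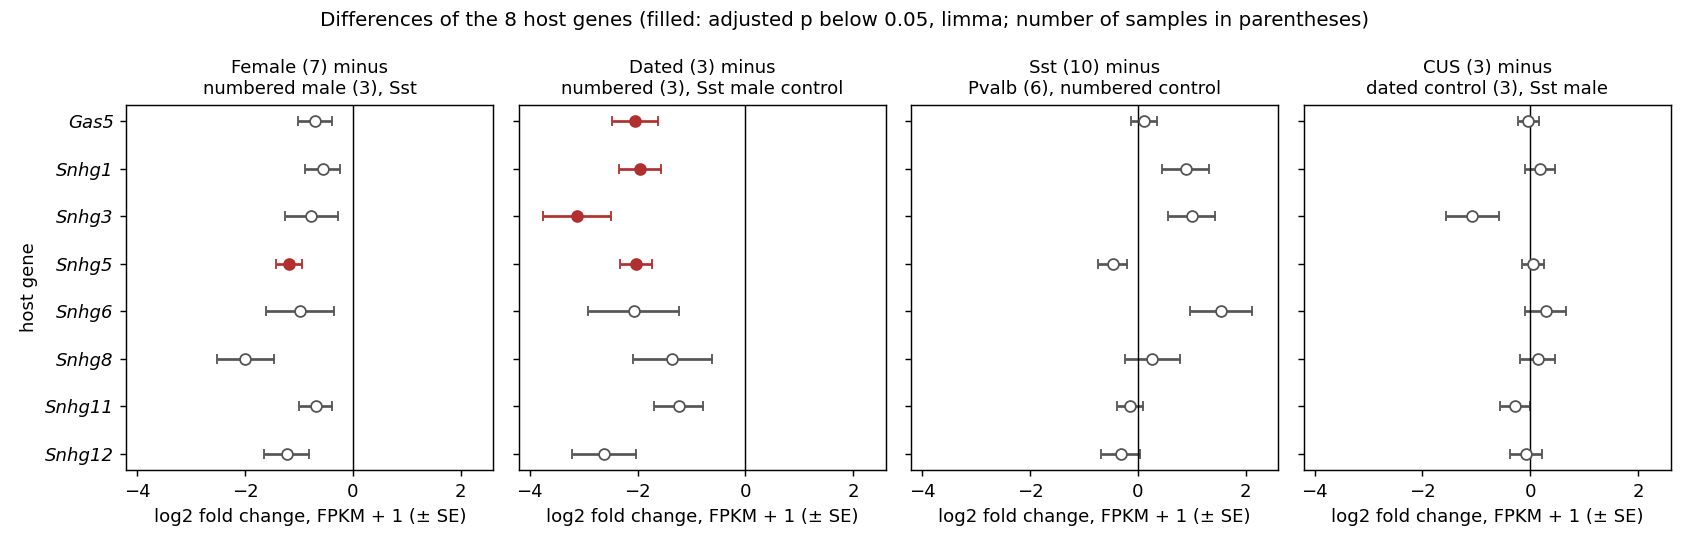
Log2 fold change (FPKM + 1) of the 8 host genes in 4 comparisons, with the standard error as the bar, for the numbers of samples given above each panel. Filled points passed an adjusted p of 0.05 (limma): Snhg5 for sex and Gas5, Snhg1, Snhg3 and Snhg5 for dated against numbered titles, while no point is filled for subtype or CUS.

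Sst and Pvalb controls of the numbered kind (10 against 6 samples) showed no called difference in any of the 8 genes (limma), while 10.2% of 14483 genes tested passed in either direction, and 2 of the 8 had an unadjusted p below 0.05. The 10 Sst samples are 7 females and 3 males and the 6 Pvalb samples are all labelled male, so sex and subtype cannot be told apart in this fit, and with the 3 numbered Sst males alone 0.0912% of 14253 genes passed and again none of the 8. The 2 genes were Snhg6 (log2 fold change 1.54, 95% interval 0.32 to 2.75, adjusted p = 0.0923, limma) and Snhg3 (1.00, 0.08 to 1.92). Gas5 averaged 108.7 ± 55.5 FPKM (SD, n = 10) in Sst and 93.7 ± 20.3 (n = 6) in Pvalb samples, an interval of -0.39 to 0.62. The others had intervals that included 0, from -1.08 to 0.44 for Snhg12 to -0.02 to 1.80 for Snhg1.

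Within the Pvalb group the averaged pair PV0-M/PV2-M stood apart. It was at 137.0 FPKM for Snhg1, where the other 5 samples were at 8.43 to 41.5, at 49.5 for Snhg3 (others 4.24 to 11.5) and at 16.8 for Snhg6 (others 0 to 6.13). For Snhg11 it was the lowest, at 1.93 FPKM (others 2.20 to 3.89). Without this sample 3 genes passed as higher in Sst: Snhg1 (1.35, adjusted p = 0.0112), Snhg3 (1.41, adjusted p = 0.0159) and Snhg6 (1.97, adjusted p = 0.0192, limma). That fit called 19.9% of all genes. Without the 3 Pvalb samples with high Xist none of the 8 passed, in a fit that called 0.0622% of 14467 genes. The sign then turned for Snhg1 (-0.10, from 0.89), Gas5 (-0.047) and Snhg11 (0.092).

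PV4-M and PV5-M, both of high Xist, had the lowest Snhg1 of all 22 samples, at 8.43 and 10.9 FPKM, although their Gas5 was at 74.4 and 79.5. PV1-M, the third, was at 24.3 FPKM for Snhg1. Summed neuron markers were 51.5 to 361.4 FPKM in the Pvalb samples, 104.6 to 142.4 in the numbered Sst males and 85.1 to 275.0 in the Sst females. Endothelial markers summed to 10.5 to 96.2, 27.4 to 181.9 and 79.6 to 160.6 FPKM in the same order. In the fit with all 10 Sst samples, 4 of 10 neuron markers were called lower in Sst (40.0%, against 10.2% of all genes). Of 7 endothelial markers, 6 were called higher in Sst (85.7%). The part of these in the differences of Snhg1, Snhg3 and Snhg6 was not tested.

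Other genes of the same pathway were counted from lists. Of 13 further noncoding hosts, none passed for sex or CUS and 1 was lower in the dated males (7.69%, against 4.11% of all genes called). This was Snhg4, at 1.22 ± 0.72 FPKM (SD, n = 3) against 10.1 ± 3.51 (n = 3), a log2 fold change of -2.33 (adjusted p = 0.0334, limma). The median change of the 13 hosts in that comparison was -1.14, with 9 of 13 negative. The subtype comparison called 4 of the 13 (30.8%, against 10.2% of all genes) and none of the 8 above. Snhg7 was higher in Sst (19.2 ± 6.09 FPKM, n = 10, against 6.86 ± 1.37, n = 6, log2 fold change 1.32, adjusted p = 0.00194, limma). Lower in Sst were Dancr (-1.78), 2410004N09Rik, the table's name for Epb4.1l4aos (-1.62), and 1810032O08Rik, its name for Snhg16 (-1.22).

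Among the 8 core proteins of small nucleolar ribonucleoproteins, which bind the processed RNAs, 1 passed, for subtype only. That share of 12.5% is near the 10.2% of all genes called there. Nop56, a scaffold of box C/D particles and itself a host gene, was lower in Sst than in Pvalb samples (53.7 ± 7.07 FPKM, n = 10, against 70.5 ± 2.79, n = 6, log2 fold change -0.40, adjusted p = 0.0363, limma). Of 16 factors of nonsense-mediated decay and the exon junction complex, the pathway that degrades many spliced host RNAs, 2 were higher in the dated males (12.5%, against 4.11% of all genes called in either direction). The helicase Upf1, the central factor of the pathway, was at 29.9 ± 6.78 FPKM (SD, n = 3) against 8.75 ± 2.46 (n = 3), a log2 fold change of 1.68 (adjusted p = 0.0325, limma), and Upf3b, which links it to the exon junction complex, was at 39.8 ± 5.03 against 11.1 ± 1.62 (1.75, adjusted p = 0.0179, limma). Their part in the lower host values was not tested. In the subtype comparison 1 of the 16 was called (6.25%, against 10.2% of all genes). Smg8, a regulator of the kinase that acts on Upf1, was lower in Sst (-1.08). None of the 16 passed for sex or CUS (limma).

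Protein-coding genes with a small nucleolar RNA gene in their span were counted in the same way. Of 225 tested between dated and numbered males, 7 were lower and 4 higher (4.89%, against 4.11% of all genes), and their median log2 fold change was -0.050, against -2.04 for the 8 noncoding hosts. The largest called changes were those of Cox7c (-3.82), a subunit of cytochrome c oxidase, Rpl39 (-2.80), a protein of the large ribosomal subunit, the kinase Eif2ak3 (2.35) and the mitochondrial phosphate carrier Slc25a3 (-2.19). For sex, 5 of 224 were lower and 1 higher in females (2.68%, against 3.41% of all genes), among them Cdh13 (1.36), Gtf2f2 (-1.32), March1 (-1.25) and Snx5 (-1.15). For subtype, 7 of 225 were higher and 11 lower in Sst (8.0%, against 10.2% of all genes), the largest changes being Ptprb (2.63), Hs3st4 (-1.40), Fbxo3 (1.20) and Rpsa (-0.88). For CUS none of 227 passed against dated controls and none of 225 against all male controls (limma).

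The genes whose levels were most like each host were sought over the 16 numbered control samples by Pearson's r of log2(FPKM + 1), among 9254 genes above a mean of 5 FPKM. The samples share groups and the 2 averaged pairs, so these values are descriptions, and r is given also without the pairs (14 samples). Snhg5 was nearest to Rbm47 (r = 0.96, 0.94 without the pairs) and Snx5 (0.93, 0.90). Snhg1 was nearest to Traf6 (0.94, 0.92) and Serp1 (0.94, 0.93), and these 2 hosts depended least on the pairs. Gas5 was nearest to Paf1 (0.94, 0.82), Snhg8 to Trib1 (0.94, 0.85), Snhg11 to Ganab (0.94, 0.84), Snhg12 to Arsg (0.94, 0.84), Snhg3 to Etv1 (0.92, 0.82) and Snhg6 to Tmem106b (0.88, 0.79). No host had another of the 8 among its 3 nearest genes.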

How the data were processed

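The authors deposited 1 table of FPKM per gene symbol for 24 libraries. The study's methods name trimming, HISAT2 on mm10 and StringTie after a sentence with mm9 and TopHat2, the submitters' processing notes name TopHat2, Cufflinks and Cuffdiff with mm10, and ribosomal RNA was depleted before library construction. ComBat is named, but whether it was applied to the deposited FPKM is not stated.

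Near-identical libraries (log2 ratio over genes above 5 FPKM with an SD below 10% of the second-closest pair's) were averaged. Genes with a mean above 0.4 FPKM in the samples compared were tested as log2(FPKM + 1), two-sided, with limma 3.58.1 (trend, robust) in R 4.3.3, Benjamini-Hochberg over all genes tested, threshold 0.05. Python 3.11.15 was used otherwise. The procedure was tested on simulated data. Fold changes on this scale understate changes of low genes. Without counts, depth is approximate (0.456 to 2.49 times SST2-F by the step of low values) and no counting interval can be given. The study gives the number of RNA-seq samples as mice in 1 legend, but no label ties a library to an animal, so p-values measure the spread between these samples. The 8 genes, the lists and the tests were chosen with earlier results of these data known. Named were the 8 genes, called genes of the lists (at most 4 per list and comparison) and the 3 most correlated genes per host, of which the first or first 2 are given. Upf1, Upf3b and Smg8 were named after their values were seen. Small nucleolar RNA sequences were not used here. Alternatives were the pseudocount (0.1), the filter, 2 scalings, keeping near-identical libraries apart, other control sets, a replicate block and leaving out each sample.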

Additional observations from a re-analysis of the deposited data

Results flagged for a closer look

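In the groups of 6 and 7 samples, 16 sets of values (8 genes in 2 groups) were checked for a sample far from the others by Dixon's 95% critical value, which chance exceeds in about 1 in 20 sets. It was exceeded in 5, all in the Pvalb males and all by the averaged pair PV0-M/PV2-M as the highest sample. Gas5 was at 131.9 FPKM there, and the next sample at 94.3. Snhg1 was at 137.0 with the next at 41.5, Snhg3 at 49.5 with the next at 11.5, Snhg6 at 16.8 with the next at 6.13, and Snhg12 at 107.5 with the next at 53.5. The 5 come from 1 sample and are not independent. No set of the 7 control females exceeded the value, and the groups of 3, which hold the pair SST0-M/SST1-M, were not checked.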

How the results depend on the processing

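The number of host genes called for sex was 1 (3.41% of all genes called) and became 3 with near-identical libraries kept apart (17.7%). It was 0 with all male Sst controls (11.7%) or with the replicate block (0.0770%), and ranged from 0 to 2 when samples were left out in turn (0.692% to 12.4%). For dated against numbered titles it was 4 (4.11%), became 1 with no filter on low values (2.18%) and 2 with scaling to a common median (3.56%), and ranged from 0 to 5 (0.381% to 13.7%). For subtype it was 0 with (8.24%) and without (10.2%) the replicate block and ranged from 0 to 3, the 3 without PV0-M/PV2-M (19.9%). For CUS it was 0 under every alternative against both control sets.

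No sign turned between dated and numbered titles. With all male Sst controls the sex change became 0.32 for Gas5, 0.42 for Snhg1, 0.79 for Snhg3, 0.060 for Snhg6 and 0.082 for Snhg12. For subtype the sign turned for Snhg11 with near-identical libraries apart (0.043), for Gas5 with the dated males added (-0.24), for Snhg5 (0.37), Snhg11 (0.34) and Snhg12 (0.54) with numbered males only, and for Gas5 (-0.047), Snhg1 (-0.10) and Snhg11 (0.092) without the Pvalb samples of high Xist. For CUS it turned for Snhg8 (0.17, all Sst controls) and for Gas5 against dated controls (0.021, quantile normalization). Leaving out samples in turn gave a change of sign in 14 of 376 cases. For CUS against dated controls the changes then ranged from -0.14 to 0.17 for Gas5, -0.070 to 0.21 for Snhg5, -0.052 to 0.64 for Snhg6, -0.079 to 0.51 for Snhg8 and -0.33 to 0.19 for Snhg12. They ranged from -1.28 to 0.014 for Snhg3 and from -1.52 to 0.057 for Snhg6 for sex, and from -0.033 to 0.22 for Gas5 and from -0.088 to 0.42 for Snhg8 for subtype. The positive end for sex and the negative end for subtype came without SST0-M/SST1-M. The cause was not tested.

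The replicate block used the shared title numbers. Over genes above 5 FPKM, the deviations of same-numbered samples from their group means correlated at -0.067 to 0.132, so the numbers were not read as pairs. In the block Snhg5 changed by -1.06 for sex (adjusted p = 0.229, limma).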
